A study of Mus musculus with 4 samples.

Results

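The genes through which endothelium controls clotting and the dissolution of clots were followed in aortic endothelial cells: *Vwf*, *F8*, *Procr*, *Tfpi* and *Plat*. They were chosen as a list of symbols, all 5 of which had a row in the UMI tables of the 4 mice, out of 16408 nuclear genes listed. Cells were the wells with at least 1000 nuclear UMIs (unique molecular identifiers, each marking 1 captured transcript) and at most 25% mitochondrial UMIs. That rule kept 441 wells, and 426 of them lay outside a cluster of 15 smooth muscle-like cells and are called endothelial cells here, after the sort. They include a cluster of 86 cells (cluster 2) whose leading genes hold the fibroblast markers *Dcn* and *Lum*, beside *Thbs1*, *Edn1*, *Bmp4* and *Cyr61*. It had the highest fibroblast score outside the smooth muscle-like cluster. As in every cluster, no gene of the endothelial list was among the leading genes. That list still summed to 12659 CPM (UMIs per 1000000 nuclear UMIs) in cluster 2. The size of the smooth muscle-like cluster depended on the clustering. With 20 principal components in place of 10 it held 80 cells in place of 15, led by *Acta2* and *Tagln*. These 80 still had *Vwf* at 1118 CPM and *Procr* at 519 CPM. Their markers were mixed: the endothelial list summed to 10210 CPM and the smooth muscle list to 10801 CPM, against 2662.5 and 53745 CPM in the 15. Leaving out the 80 thus also leaves out endothelial cells, and the values below for smooth muscle-like cells are those of the 15.

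The cells came from SORT-seq, a plate-based method in which each sorted cell fills 1 of 384 wells and the 3′ ends of its polyadenylated RNA are counted. Live CD31+ CD45- cells were sorted from the whole digested aorta, arch to abdomen, after the adventitia had been taken off. Of the 4 C57BL/6 mice, 2 were labelled Epas1 EC-KO (Epas1fl/fl, Cdh5Cre/+, with a tamoxifen-inducible Cre driven by the endothelial VE-cadherin promoter) and 2 were labelled Epas1 EC-WT (Epas1fl/fl, Cdh5+/+, with the floxed allele and no Cre). Tamoxifen was given to all 4 mice when they were 6 weeks old, and the aortas were taken 2 weeks later, so the groups differed in the Cre and shared the drug and the floxed gene. *Epas1* encodes hypoxia-inducible factor 2α, and the comparison asks whether its loss from endothelium changes these genes.

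Endothelium holds blood fluid and yet stores what is needed to stop a bleed. It packs von Willebrand factor, the multimer that tethers platelets to an injured wall, into Weibel-Palade bodies, and von Willebrand factor in plasma also carries and protects factor VIII, a cofactor of the clotting cascade. On the anticoagulant side, the endothelial protein C receptor (*Procr*) presents protein C to thrombin bound to thrombomodulin, and tissue factor pathway inhibitor (*Tfpi*) blocks the complex that starts clotting. Tissue plasminogen activator (*Plat*) turns plasminogen into plasmin, which dissolves fibrin.

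The genes lie apart from each other on GRCm38, *Procr* and *Tfpi* on the same chromosome. GENCODE M21 places *Vwf* at chr6:125546774-125686679 (+), *F8* at chrX:75172715-75382615 (-), *Procr* at chr2:155751117-155755471 (+), *Tfpi* at chr2:84432855-84476775 (-) and *Plat* at chr8:22757727-22782844 (+). Because the deleted factor belongs to a family that binds DNA at the cores ACGTG and GCGTG, the RefSeq promoter windows (GRCm38.p6, 250 bases before to 50 after an annotated start) of the genes with an entry, *F8*, *Procr* and *Tfpi*, were searched on both strands. They are printed 5′ to 3′ on the strand of the gene, with a match to either core in capitals.

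Tfpi chr2:84476710-84477009 (-): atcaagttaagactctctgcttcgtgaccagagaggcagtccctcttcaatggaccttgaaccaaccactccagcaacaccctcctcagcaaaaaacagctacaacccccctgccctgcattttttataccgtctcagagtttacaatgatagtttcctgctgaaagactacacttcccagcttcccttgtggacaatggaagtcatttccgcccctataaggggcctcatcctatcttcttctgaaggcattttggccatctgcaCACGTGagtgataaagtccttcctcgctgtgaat
Procr chr2:155750967-155751266 (+): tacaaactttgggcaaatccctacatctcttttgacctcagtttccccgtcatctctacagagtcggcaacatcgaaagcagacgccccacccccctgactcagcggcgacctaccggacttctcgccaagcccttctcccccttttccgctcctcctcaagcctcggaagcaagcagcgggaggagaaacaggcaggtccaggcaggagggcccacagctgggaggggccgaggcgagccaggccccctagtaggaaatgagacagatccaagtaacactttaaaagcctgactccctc
F8 chrX:75379992-75380291 (-): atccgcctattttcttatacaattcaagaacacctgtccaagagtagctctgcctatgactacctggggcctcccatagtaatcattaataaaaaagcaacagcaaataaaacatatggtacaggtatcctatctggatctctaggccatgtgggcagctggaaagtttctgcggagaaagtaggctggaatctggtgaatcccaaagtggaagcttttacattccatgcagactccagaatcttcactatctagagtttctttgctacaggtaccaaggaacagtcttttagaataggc

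The *Tfpi* window at its upstream start held CACGTG, which reads ACGTG on both strands, beginning at base 267 of the window and so just after the start. The windows of *Procr* and *F8*, and the other *Tfpi* window (chr2:84474125-84474424), held neither core. The *F8* window lies inside the gene as GENCODE draws it, because its RefSeq start is downstream of the GENCODE start. ACGTG was found in 19.6% of all 32851 promoter windows, GCGTG in 32.4% and at least 1 of them in 43.8%. The letters GATA, the core of a factor family used by endothelial genes, also searched on both strands, occurred 3 times in the *F8* window, 3 and 2 times in the *Tfpi* windows and not in that of *Procr*, against 57.9% of all windows. A match is a description of the letters only.

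All 14 endothelial markers were found in all 4 libraries, though at unequal levels. *Kdr*, *Erg* and *Robo4* had between 5 and 18 UMIs each in a mouse, whereas *Pecam1*, which encodes CD31, had 2568 to 5059. A *Pecam1* UMI was found in 99.1% of the 426 endothelial cells, and the 14 genes summed to between 12620 and 16076 CPM in a mouse. Markers of other cells that carry these genes in blood were close to 0: *Ptprc*, which encodes CD45, had 1 UMI in all, 5 platelet genes that were matched of 10 summed to 7.93 to 21.8 CPM, and *Pf4* had 4 UMIs, all in EC-WT mouse 2. The 4 lymphatic markers matched of 7 summed to 48.0 to 74.6 CPM. The endothelial cells numbered 149 and 94 in the libraries labelled EC-KO and 113 and 70 in those labelled EC-WT, with median depths of 5855, 7335, 3808 and 5753 nuclear UMIs and totals of 549570 to 1023791. No well repeated the counts of another, although 136 well positions were kept on 2 or more plates.

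The labels themselves could not be checked on the targeted gene. *Epas1* stood at 3079 and 3342 CPM in the mice labelled EC-KO and at 3332 and 2415 CPM in those labelled EC-WT, with a log2 difference of 0.19 ± 0.21 (SE), but 3′ counts need not cover the deleted part of the gene. The study's text states more EC-WT than EC-KO cells, the opposite of the labelled plates, so each direction below is that of the libraries as labelled. Smooth muscle markers moved with the labels: the list of 11 genes summed to 909 and 924 CPM in the EC-KO mice and to 299 and 302 CPM in the EC-WT mice, and fibroblast markers to 2956 and 1988 CPM against 1381 and 1719 CPM. Their part in the differences between the groups was not tested.

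The levels of the 5 genes fell in the same order in every mouse. UMIs count molecules at their 3′ end, so no length correction was applied. *Vwf* was the 44th most abundant nuclear gene at 1833 ± 210 CPM (SD, n = 4 mice), *Procr* followed at 421 ± 145 CPM, *Plat* at 92.2 ± 22.7 CPM, *Tfpi* at 49.7 ± 5.14 CPM and *F8* was last at 8.18 ± 4.16 CPM. *Vwf* exceeded *Procr* by 3.07 to 5.69 times within a mouse, and *Procr* exceeded *Plat* by 2.80 to 6.65 times. The step from *Plat* to *Tfpi* was the smallest, between 1.05 and 2.33 times, and in EC-KO mouse 2 the intervals of these 2 genes overlapped.

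**Figure D1:**
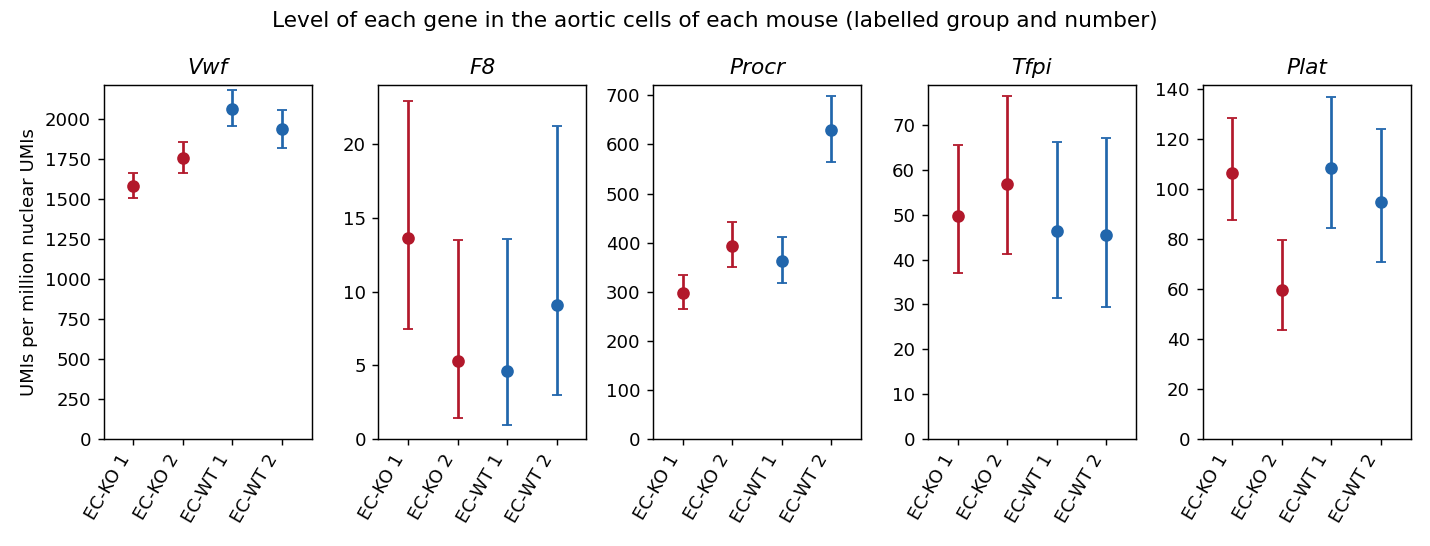
Level of each gene in UMIs per 1000000 nuclear UMIs (vertical axes, each from 0) in the endothelial cells of each mouse, with red points for the mice labelled EC-KO, blue points for those labelled EC-WT and bars for exact Poisson 95% intervals, which cover counting error only. *Procr* in EC-WT mouse 2 (629.6 CPM) stands above the other 3 mice, and the intervals of *F8* overlap in all 4.

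*Vwf* had UMIs in nearly all endothelial cells. It stood at 1581 and 1754 CPM in the EC-KO mice and at 2063 and 1932 CPM in the EC-WT mice, from 1062 to 1619 UMIs each. Both EC-KO mice lay below both EC-WT mice, as did 19.9% of all 8145 genes tested. The log2 difference was -0.23 (95% interval -0.62 to 0.17), which edgeR's quasi-likelihood test did not separate from 0 (adjusted p = 0.916). The 80-cell cluster of mixed markers, made with 20 principal components, held 36 and 15 cells of the EC-KO mice and 3 and 26 of the EC-WT mice. Without that cluster the log2 difference was -0.39 (unadjusted p = 0.0391, adjusted p = 0.798 in edgeR's test), and without cluster 2 it was -0.36. With cells thinned to 1000 UMIs it was -0.10, and without the *Fabp4*-led cluster described below it was -0.089. Over all 21 fits the adjusted p was at least 0.779. A *Vwf* UMI was found in 92.7% of endothelial cells, against 33.3% of the 15 smooth muscle-like cells, whose median depth of 7368 UMIs was above the 5549 of the endothelial cells. In wells of rows L to P, none of which passed the filter, 7.71% of 480 wells had a *Vwf* UMI at a median of 47 nuclear UMIs. With every cell thinned to 1000 UMIs the share was 73.2% and 77.7% in the EC-KO mice and 76.1% and 75.7% in the EC-WT mice, and 6.67% (1 of 15) in the smooth muscle-like cells. These shares overlapped between the groups and differed by -0.503 percentage points (exact permutation p = 1, where 2 against 2 mice cannot go below 0.33). Leaving out 1 mouse moved that difference from -2.76 to 1.75, and over all kept cells it was -4.61.

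*F8* was at the limit of detection. Its 26 UMIs came from 17 of the 426 endothelial cells, with 14 and 4 UMIs in the EC-KO mice and 3 and 5 in the EC-WT mice. Levels were 13.7, 5.29, 4.65 and 9.10 CPM in that order, and the groups overlapped. In EC-WT mouse 2, 4 of the 5 UMIs came from 1 cell. The gene did not pass the filter on low counts and so had no test. After thinning, 2 cells of EC-KO mouse 1 kept a UMI and none of the other mice did, which in the 70 cells of EC-WT mouse 2 allows a share of up to 4.29% (a count of 0 read as up to 3, counting error only). Without thinning, 2.86% of the cells of that mouse had a UMI. No *F8* UMI was found in rows L to P, where a count of 0 allows up to 104 CPM, far above its level in endothelial cells.

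*Procr* gave the largest difference among the 4 genes tested, and that difference rested on 1 library and, in part, on 1 cell. It stood at 298 and 394 CPM in the EC-KO mice and at 362 and 629.6 CPM in the EC-WT mice. The groups overlapped, since EC-KO mouse 2 lay above EC-WT mouse 1. The log2 difference was -0.48 (95% interval -0.997 to 0.03, unadjusted p = 0.0621, adjusted p = 0.879 in edgeR's test). Without EC-WT mouse 2 it was -0.063, and without EC-WT mouse 1 it was -0.82 (adjusted p = 0.0506). Over all 21 fits the adjusted p ranged from 0.0506 to 0.9999. In EC-WT mouse 2, a cell with 41359 nuclear UMIs held 108 of the 346 *Procr* UMIs, or 31.2%, beside 7.53% of the mouse's nuclear UMIs, and no other endothelial cell had more than 26. That cell had 226 *Pecam1* and 49 *Vwf* UMIs. Without it, EC-WT mouse 2 stood at 468 CPM and the log2 difference was -0.23 (adjusted p = 0.949). It was -0.31 without cluster 2, -0.30 without cells over 3 times the median UMIs and -0.22 without the 80-cell cluster of mixed markers.

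*Procr* was higher in endothelial than in the 15 smooth muscle-like cells. A UMI was found in 67.1% of endothelial cells and in 2 of the 15 smooth muscle-like cells. The wells of rows L to P, of far lower depth, had one in 1.67%, and their level of 278 CPM (120 to 547) overlapped that of endothelial cells. The level was 398 CPM (exact Poisson 95% interval 375 to 421) in endothelial and 11.1 CPM (1.35 to 40.2) in smooth muscle-like cells. At 1000 UMIs per cell the share was 22.1% and 20.2% in the EC-KO mice and 20.4% and 30% in the EC-WT mice, a difference of -4.00 percentage points (exact permutation p = 0.667). It was 0.826 without EC-WT mouse 2, -8.82 without EC-WT mouse 1, -9.19 at 2000 UMIs per cell and -0.268 without thinning.

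*Tfpi* varied least between mice, with 1.25 times between the highest and the lowest. It stood at 49.8 and 56.8 CPM in the EC-KO mice and at 46.5 and 45.5 CPM in the EC-WT mice, from 25 to 51 UMIs each. Both EC-KO mice lay above both EC-WT mice, as did 15.3% of all genes tested, while the counting intervals of all 4 mice overlapped. The log2 difference was 0.24 (95% interval -0.40 to 0.88, adjusted p = 0.964 in edgeR's test), and it turned to -0.068 without the cluster with the highest fibroblast score and to -0.12 without the 80-cell smooth muscle-like cluster of 20 principal components. The share of cells with a UMI was 21.1%, or 5.37%, 4.26%, 4.42% and 8.57% per mouse after thinning. Rows L to P held no *Tfpi* UMI, but a count of 0 there allows up to 104 CPM, above its level in endothelial cells. In smooth muscle-like cells the level was 27.9 CPM (9.04 to 65.0, from 5 UMIs), and its interval overlapped the 50.1 CPM (42.4 to 58.8) of endothelial cells.

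Among the 4 genes tested, *Plat* had the largest ratio between the 2 mice labelled EC-KO. They stood at 106 and 59.5 CPM and the EC-WT mice at 108 and 94.6 CPM, so EC-KO mouse 1 lay between the EC-WT mice and EC-KO mouse 2 below both. The log2 difference was -0.23 (95% interval -0.85 to 0.39, adjusted p = 0.964 in edgeR's test). It was 0.13 without EC-KO mouse 2 and -0.77 without EC-KO mouse 1, so either direction could be had by leaving out 1 library. At 1000 UMIs per cell *Plat* was found in 8.05% and 2.13% of cells in the EC-KO mice and in 8.85% and 5.71% in the EC-WT mice. The level in smooth muscle-like cells was 55.7 CPM (26.7 to 102, from 10 UMIs), with an interval that overlapped the 92.8 CPM (82.1 to 104) of endothelial cells, and rows L to P held 1 *Plat* UMI.

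None of the 4 genes tested was called at an adjusted p of 0.05, where 0.0123% of the 8145 genes tested were (1 gene, *Acta2*, the smooth muscle actin, higher in the libraries labelled EC-KO). At an unadjusted p under 0.05 there were 0 of the 4 and 444 of all genes. DESeq2 called 0 of the 4 and 1 of all 8145 genes at an adjusted p of 0.05, with 115 of all genes at an unadjusted p under 0.05. The mice stood for the replicates, so the intervals above rest on 2 against 2 mice and still contain differences of up to about 1 on the log2 scale. The mice labelled EC-KO 2 and EC-WT 1 were sequenced on 1 flow cell, and between them, with no test, the log2 difference was -0.25 for *Vwf*, 0.11 for *Procr*, 0.28 for *Tfpi* and -0.88 for *Plat*. The other 2 mice each had a flow cell of their own. On simulated counts made like these, the test recovered 32 of 200 genes changed by 1 on the log2 scale and 171 of 200 changed by 2.

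**Figure D2:**
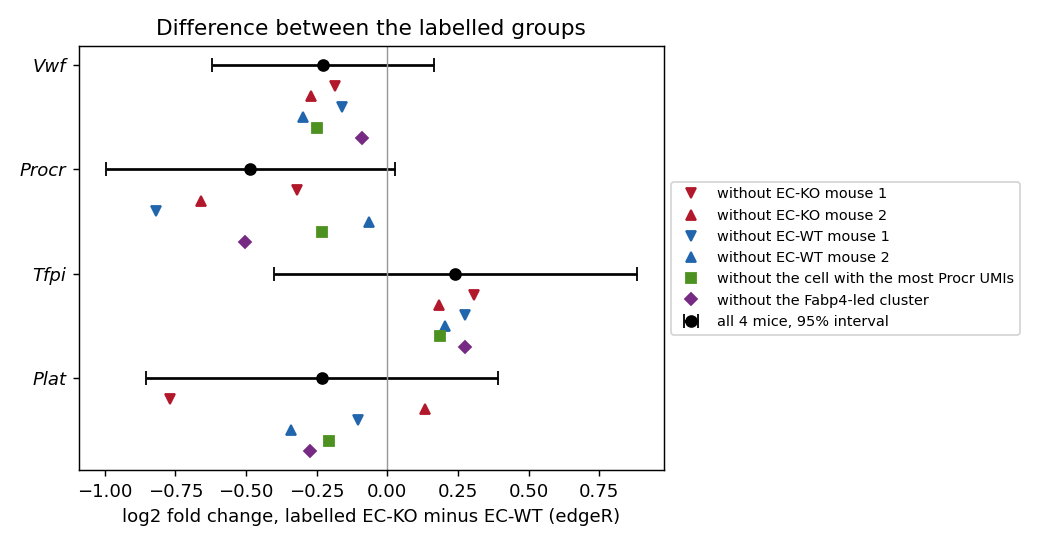
Log2 fold change of the 4 tested genes between the libraries labelled EC-KO and EC-WT (horizontal axis) over all 4 mice with the 95% interval (black), and as points without each mouse, without the cell with the most *Procr* UMIs and without the *Fabp4*-led cluster. All 4 intervals cross 0, *Procr* moves from -0.82 to -0.063 with the EC-WT mouse left out, and *Plat* changes sign.

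Among groups of cells, the pooled levels of *Vwf*, *F8* and *Tfpi* were highest in the same small cluster, of 23 cells. Its leading genes were *Fabp4* and *Cd36*, both of fatty acid uptake, followed by *Lrg1* and *Nr2f2*, a transcription factor of venous endothelium. For *F8* and *Tfpi* this rested on 7 and 9 UMIs. With cells thinned, the share with a UMI there was 0% for *F8* and 4.35% for *Tfpi*. The 4 other endothelial clusters had 0% to 1.16% and 2.33% to 4.27%. For *Vwf* that share was 78.3%, against 68.3% to 84.5%, but the mean was 5 UMIs per thinned cell, against 1.36 to 1.85. The members had been left out of the genes that built the clusters, but these values and those below are a description without a test. *Vwf* stood at 5270 CPM in that cluster (4877 to 5685) and at 1465 to 1767 CPM in the 4 other endothelial clusters. The cluster gave 12.5% of all *Vwf* UMIs of endothelial cells and 4.26% of their nuclear UMIs. Its *Vwf* level was 3195 CPM in EC-KO mouse 1 (6 cells), 4739 CPM in EC-KO mouse 2 (3 cells), 5908 CPM in EC-WT mouse 1 (8 cells) and 6985 CPM in EC-WT mouse 2 (6 cells). In each mouse the cluster lay above the other endothelial clusters in *Vwf*. In EC-KO mouse 1, 2 cells gave 71 and 30 of the 103 *Vwf* UMIs, so its level rests on these.

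The cells of the *Fabp4*-led cluster were not alike. Sorted by their values, 6 of the 23 held 0 or 1 *Vwf* UMI and the other 17 held 4 to 94, and no cell lay between. Of the 6, 4 came from EC-KO mouse 1 and 2 from EC-WT mouse 1. In the 6 cells with 0 or 1 *Vwf* UMI, *Vwf* stood at 148 CPM and *Nr2f2* at 148 CPM (3 UMIs), and in the other 17 *Vwf* stood at 6247 CPM and *Nr2f2* at 808 CPM (86 UMIs), whereas *Fabp4* was at 12156 CPM in the 6 and at 5477 CPM in the 17. All 7 *F8* UMIs of the cluster were in the cells with more *Vwf*, which also held 106448 of its 126768 nuclear UMIs. These 7 UMIs made up 26.9% of the *F8* UMIs of endothelial cells, at 55.2 CPM (22.2 to 114), and came from 3 mice, 4 of them from 1 cell, while the 8 cells of EC-WT mouse 1 had none. This division was made on *Vwf* after the values were seen, so the difference in *Vwf* between its parts follows from it. Of the 6 cells with little *Vwf*, 2 had only 1304 and 1563 nuclear UMIs.

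**Figure D3:**
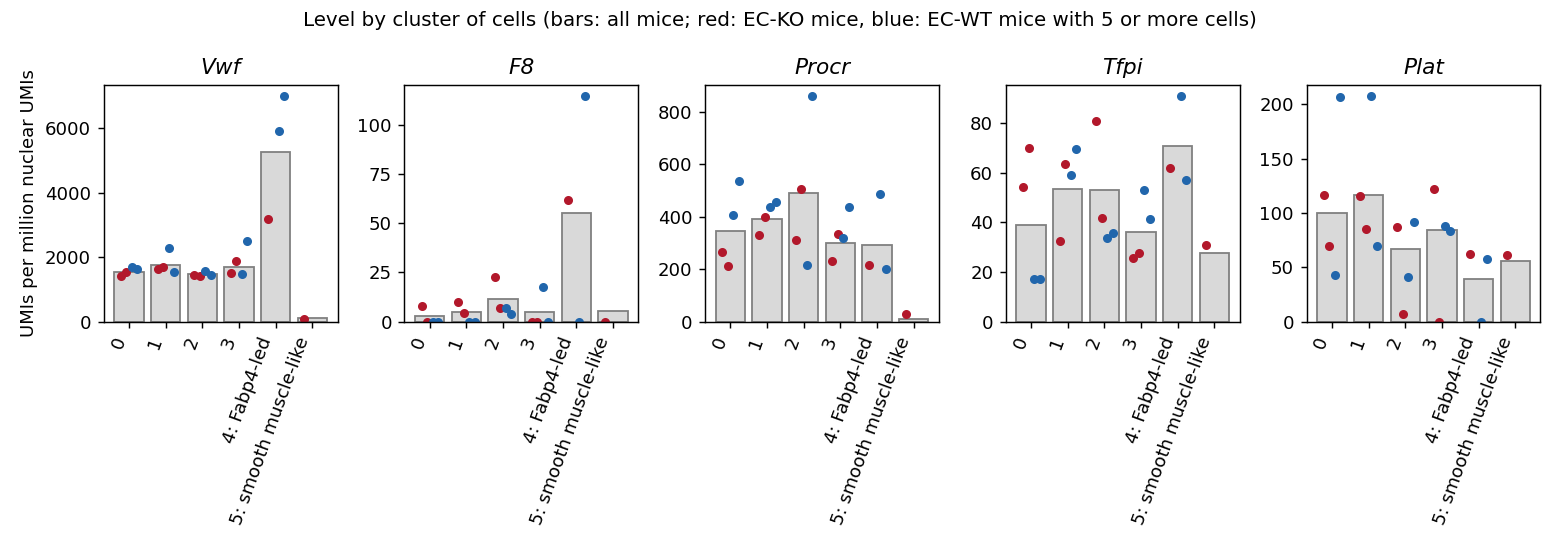
Level of each gene in UMIs per 1000000 nuclear UMIs (vertical axes, each from 0) by cluster of cells (horizontal axes), with bars for all mice together and points for mice with at least 5 cells in the cluster (red EC-KO, blue EC-WT). *Vwf* reaches 5270 CPM in the *Fabp4*-led cluster and 117 CPM in the smooth muscle-like cluster, and *Procr* is at 489 CPM in cluster 2, which holds the cell of 108 UMIs, and at 11.1 CPM in the smooth muscle-like cells.

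*Procr* and *Plat* did not share that pattern. *Procr* was at 292 CPM in the *Fabp4*-led cluster (206 to 402), against 301 to 489 CPM in the other endothelial clusters. That order was not shared by EC-WT mouse 1, where the *Fabp4*-led cluster was the highest at 485 CPM. In EC-KO mouse 2, cluster 0 was lower, at 210 CPM against 263 CPM in the *Fabp4*-led cluster (3 cells). With 20 principal components another cluster was lowest at 197 CPM and the *Fabp4*-led cluster stood at 311 CPM. After thinning to 1000 UMIs, 8.70% of cells in the *Fabp4*-led cluster had a *Procr* UMI, against 19.0% to 31.4% in the other endothelial clusters. The highest *Procr* level was in cluster 2, whose leading genes include the fibroblast markers *Dcn* and *Lum*. Without the cell of 108 UMIs that cluster stood at 380.4 CPM, below the 392 CPM of cluster 1. *Plat* was at 39.4 CPM in the *Fabp4*-led cluster, from 5 UMIs (12.8 to 92.0), and at 67.0 to 116 CPM in the other endothelial clusters. Its highest pooled level was in cluster 1, led by *Meg3* and *Fndc1*, but cluster 3 was higher in EC-KO mouse 1 (122 CPM) and cluster 0 in EC-WT mouse 2 (207 CPM). The *Fabp4*-led cluster was the lowest in *Plat* in all 3 mice with at least 5 cells there. At 1000 UMIs per cell the share with a *Plat* UMI was 8.70% in that cluster, of 23 cells, and 5.81% to 10.3% in the other 4. The order of the pooled levels was thus not seen in these thinned shares, which rest on few cells. *Tfpi* ran from 36.0 to 71.0 CPM with overlapping intervals, and was highest in the *Fabp4*-led cluster in 1 of the 3 mice with at least 5 cells there. Without the *Fabp4*-led cluster, which held 4.03% and 3.19% of endothelial cells in the EC-KO mice and 7.08% and 8.57% in the EC-WT mice, the log2 difference of *Vwf* between the groups was -0.089 (adjusted p = 0.991), against -0.23 with it.

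Between cells, *Vwf* varied more than counting alone gives in all 4 mice. In cells thinned to 1000 UMIs, the variance of *Vwf* was 1.39, 1.55, 2.02 and 3.28 times its mean in the mice in the order above, where counting error alone gives about 1. For *Procr* the ratio was 0.931, 1.12, 1.17 and 1.95, the last in the mouse with the cell of 108 UMIs. For *Tfpi* it stayed between 0.928 and 1.17 and for *Plat* between 0.957 and 1.36. Up to 11 and 18 *Vwf* UMIs were left in a thinned cell of the EC-WT mice, and up to 7 in those of both EC-KO mice.

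**Figure D4:**
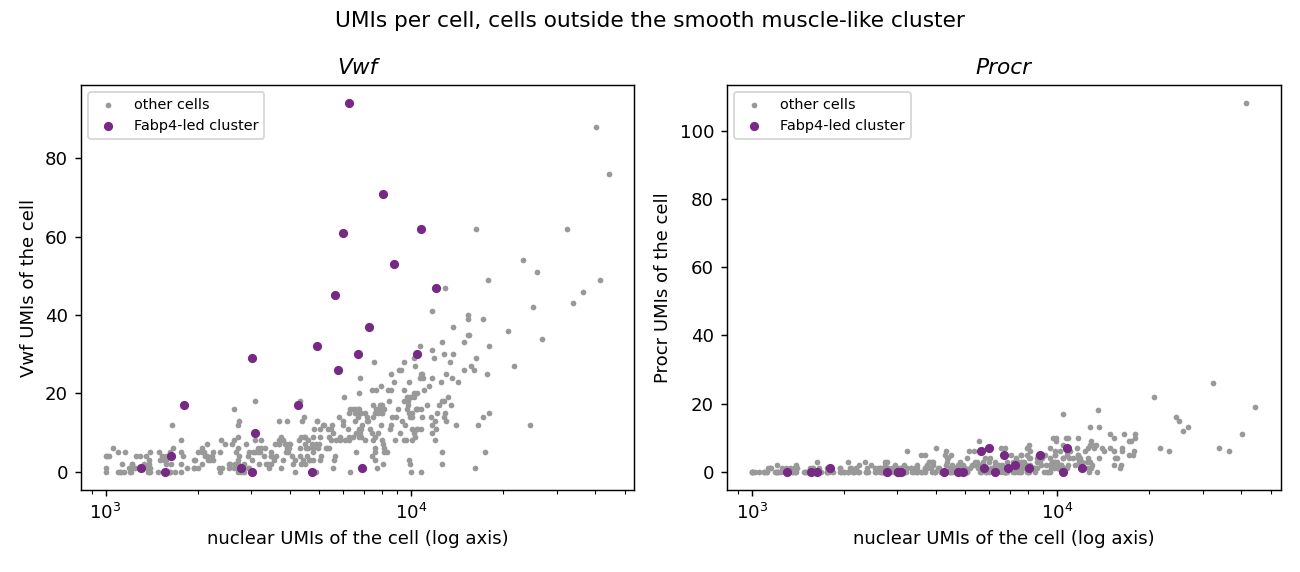
UMIs of *Vwf* and of *Procr* in each of the 426 endothelial cells (vertical axes) against the nuclear UMIs of the cell (horizontal log axes), with the 23 cells of the *Fabp4*-led cluster in purple. The highest *Vwf* count, 94, is in a cell of that cluster with 6250 nuclear UMIs, and the highest *Procr* count, 108, is in a cell with 41359.

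Levels were also compared by the depth of the cell. *Vwf* stood at 1751, 1735, 1999 and 1721 CPM in endothelial cells with from 1000, 2000, 4000 and 8000 nuclear UMIs upward to the next bound. *Procr* stood along the same bins at 252, 307, 325 and 449 CPM, or 399 CPM in the last bin without the cell of 108 UMIs. That order held in both EC-KO mice (186 to 339 and 77.0 to 437 CPM), but EC-WT mouse 2 went from 555 to 502 and 435 CPM over the first 3 bins, and EC-WT mouse 1 had 381 and 375 CPM in the last 2. In *Vwf* the first bin was the lowest in the EC-KO mice (1114 and 847 CPM) and the highest in EC-WT mouse 1 (2396 CPM). The first bin was also the lowest in EC-WT mouse 2, at 1541.5 CPM, though close to the 1566.7 CPM of its last bin. The share of cells with a *Procr* UMI went from 30.3% to 92.8%, which depth alone raises. *Vwf* and *Procr* also shared few reads per UMI, with 0.557 to 0.706 and 0.513 to 0.693 times the average of their library in the 4 mice, a median ratio lower than that of all but 17.6% and 17.5% of the 5042 genes with at least 100 UMIs. *Tfpi* (0.888 to 1.35) and *Plat* (0.808 to 0.902) were nearer the average.

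The genes scarcely moved together from cell to cell. Over 311 endothelial cells thinned to 3000 UMIs, Spearman's rho within a mouse, averaged over the 4 mice, was 0.089 between *Vwf* and *Tfpi*, 0.082 between *Vwf* and *Procr*, 0.032 between *Vwf* and *Plat* and 0.013 between *Procr* and *Plat*, and -0.071 between *Tfpi* and *Plat*. Of 3335 genes found in at least 10% of these cells in every mouse, those most like *Vwf* were *Plvap* (mean rho 0.24, from -0.0078 to 0.53 over mice), *Ptprb* (0.24, from 0.15 to 0.38) and *Arhgef1* (0.24, from 0.13 to 0.38). *Cgnl1*, *Cxcr7* and *Sae1* came first for *Procr* (0.24, 0.21 and 0.21), *Perp*, *Bace2* and *Snrpd2* for *Tfpi* (0.22, 0.22 and 0.20), and *Arl5a*, *Bmp6* and *Esyt1* for *Plat* (0.27, 0.24 and 0.18). The lowest rho of a mouse was below 0 for *Cxcr7* (-0.033), *Perp* (-0.043) and *Snrpd2* (-0.099), and above 0 for the others named for these genes. These are the highest of 3335 genes, and their ranks were not tested. The cells of a mouse share a library and their base counts are low, so these weak values are given as a description. *F8* was too rare to enter.

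Of 60 further genes of the same systems, 52 were matched to a row and 30 passed the filter on low counts. None was called in either direction, and their median log2 difference was 0.05 against 0.00 over all genes tested. At an unadjusted p under 0.05 there was 1 (*Mcfd2*), against the 444 of 8145 given above.

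In the list of Weibel-Palade body and factor VIII secretion genes, 12 of 16 were tested, 7 with a positive and 5 with a negative difference. *Mmrn2*, an endothelial multimerin, was the most abundant at 1520 ± 132 CPM (SD, n = 2) in the EC-KO mice and 1736 ± 134 CPM (n = 2) in the EC-WT mice. *Selp*, the P-selectin stored beside von Willebrand factor, had 393 ± 4.64 and 403 ± 148 CPM, with EC-WT mouse 1 lowest and EC-WT mouse 2 highest. *Mcfd2*, which with *Lman1* carries factors V and VIII out of the endoplasmic reticulum, stood at 315 and 389 CPM in the EC-KO mice and at 225 and 209 CPM in the EC-WT mice. Its log2 difference was 0.72 ± 0.19 (SE, unadjusted p = 0.00222, adjusted p = 0.814 in edgeR's test), and both EC-KO mice lay above both EC-WT mice, as in 15.3% of all genes tested. *Lman1* had a log2 difference of 0.15 ± 0.22.

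In the list of the tissue factor pathway and clotting factors, 4 of 14 genes were tested. *Gas6*, a vitamin K-dependent protein, had 555 ± 27.2 CPM in the EC-KO and 540.4 ± 28.4 CPM in the EC-WT mice (n = 2 each), and *Vkorc1* and *Ggcx*, the enzymes of the vitamin K cycle, had 193 ± 41.0 against 231 ± 15.6 CPM and 29.7 ± 10.3 against 32.0 ± 11.7 CPM. The clotting factors made in liver were at or near 0, with 1 UMI each of *F7* and *F9* and 7 of *F10* in all endothelial cells, whereas *F5* had 48.

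In the list of protein C and antithrombin pathways and thrombin receptors, the 3 most abundant genes were *Thbd*, *F2r* and *Pros1*. *Proc*, which encodes protein C, was not matched to a row. *Thbd*, which encodes thrombomodulin, had 773 and 924 CPM in the EC-KO mice and 753 and 772 CPM in the EC-WT mice, above *Procr* in each. *F2r*, the thrombin receptor PAR1, had 309 ± 17.9 and 277 ± 71.7 CPM, and *Pros1*, the cofactor protein S, had 175 ± 19.9 and 198 ± 30.9 CPM. Of the 12 genes in this list 5 were tested, 2 with a positive and 3 with a negative difference, none of them called.

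In the plasminogen list 3 of 10 genes were tested and all 3 had a negative difference, with a median of -0.24 on the log2 scale and none called. Over all 8145 genes tested, 4064 differences were negative, and the signs of the list were not tested. *Anxa2* and *S100a10*, the receptor pair that gathers tissue plasminogen activator and plasminogen on the cell surface, had 639.9 ± 101 against 773 ± 121 CPM and 406 ± 68.8 against 480.3 ± 46.4 CPM (n = 2 each). *Plgrkt*, another plasminogen receptor, had 21.5 ± 1.39 and 27.1 ± 5.45 CPM. *Plau*, the urokinase gene, had 3 UMIs in all endothelial cells.

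All 6 tested genes of the 8 platelet inhibitors of endothelium had a positive difference, with a median of 0.11 on the log2 scale and none called. Over all 8145 genes tested, 4081 differences were positive and 4064 negative, and the signs of the list were not tested. *Pecam1* had 5679 ± 1428 CPM in the EC-KO mice and 5371 ± 988 CPM in the EC-WT mice, *Nt5e*, which makes adenosine, had 639 ± 23.7 and 631 ± 247 CPM, and *Nos3*, the endothelial nitric oxide synthase, had 663 ± 158 and 565 ± 88.3 CPM (n = 2 each). In each of the 3 the groups overlapped. *Ptgs1* had the largest difference of the list, 0.36 on the log2 scale. Both EC-KO mice (358 and 448 CPM) lay above both EC-WT mice (334 and 304 CPM) in it, as in 15.3% of all genes tested.

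**Figure D5:**
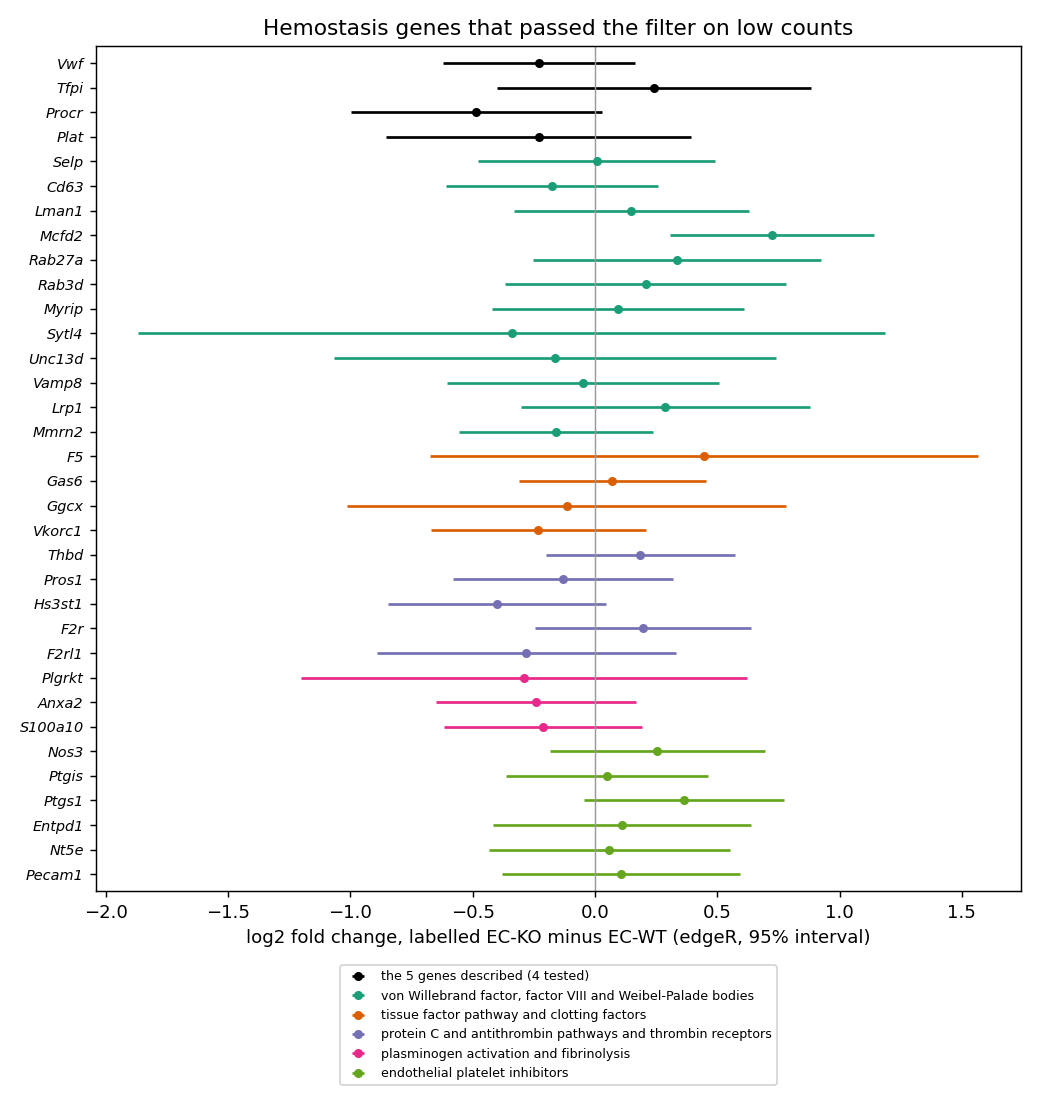
Log2 fold change between the libraries labelled EC-KO and EC-WT (horizontal axis) with 95% intervals for the 4 tested genes and the 30 further hemostasis genes that passed the filter on low counts (vertical axis), coloured by list. The interval of *Mcfd2* lies above 0 before adjustment over all genes, and the other intervals cross 0.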

How the data were processed

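The cells were processed by SORT-seq, with 1 plate of 384 wells per mouse. Per the labels and the submitters' processing notes, reads were aligned with BWA 0.7.15 to GRCm38 (mm10). For each plate the authors deposited raw UMI counts, raw read counts and transcript counts, which are estimated counts that correct the UMI counts for the 4096 possible identifiers. No deposited table was normalized or restricted to cells. Nuclear rows were used, with spike-ins and mitochondrial rows left out.

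Kept wells (72 to 157 per mouse) were clustered with Seurat 5.3.0 (2000 variable genes without the members, 10 principal components, the first resolution in steps of 0.1 that gave 6 clusters, 0.7), and the smooth muscle-like cluster was named from its markers. No doublet caller was run. UMIs were summed per mouse and compared with edgeR 4.0.16 (TMM, the tool's own low-count filter, a quasi-likelihood test and Benjamini-Hochberg adjustment over every gene that passed), and DESeq2 1.42.0 was an alternative. Shares of cells were compared by 2-sided exact permutation tests and, where above 0, have Clopper-Pearson 95% intervals, and levels carry exact Poisson intervals, both for counting error only. The tests were tested on simulated data. Positions are from GENCODE M21. R 4.3.3, Python 3.11.15 and scipy 1.17.1 were used.

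The members and lists were chosen with earlier results of these data known. Besides the 5 members, the text names the 3 genes of each list with the highest mean CPM and every called one, and the 3 genes most like each member across cells. *Lman1*, *F5*, *F7*, *F9*, *F10*, *Plau*, *Proc* and *Ptgs1* were named after the values of the lists were seen. 1 of the listed genes is not reported here and was left out of the list counts. The alternatives were other depth and mitochondrial limits, filters, scalings, cell sets, transcript counts, thinning, the replicate number as a block and leaving out each mouse. Leaving out the cell with the most *Procr* UMIs, the *Fabp4*-led cluster, or the smooth muscle-like cluster of 20 principal components was added after the data were seen.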

Additional observations from a re-analysis of the deposited data

Results flagged for a closer look

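*Vwf* and *Procr* gave UMIs in wells outside every comparison. The 480 wells of rows L to P, none of which passed the filter on cells, held 42 UMIs of *Vwf* in 37 wells and 8 UMIs of *Procr* in 8 wells, more than the 3 that a count of 0 allows. Relative to the nuclear UMIs of those wells this was 1459 CPM (exact Poisson 95% interval 1051 to 1972) for *Vwf* and 278 CPM (120 to 547) for *Procr*. The median well in those rows had 47 nuclear UMIs. A count of 0 over these wells allows up to 104 CPM, above the endothelial levels of *Plat*, *Tfpi* and *F8*, so those genes could not be compared there.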

How the results depend on the processing

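In no fit was any of the 5 genes called. The fits with 1 mouse left out take the lone mouse of a group to vary like the other group. Over all genes, 1 was called with all 4 mice, 20 with no filter on low counts, 2 with at least 10 UMIs in both mice of a group, 2 at a minimum of 2000 UMIs per well, 10 over all kept cells, 0 without the cluster with the highest fibroblast score (450 at an unadjusted p under 0.05), 3 without cells over 3 times the median UMIs, 13 after thinning, 3 without the *Fabp4*-led cluster, 0 without the larger smooth muscle-like cluster of 20 principal components (459 at an unadjusted p under 0.05) and 20 to 77 with 1 mouse left out, the most without EC-WT mouse 1; the cause was not tested. *Plat* turned to 0.085 without the large cells and ranged from -0.77 to 0.13 with 1 mouse left out. *Tfpi* turned to -0.068 without cluster 2 and to -0.12 without the 80-cell cluster of 20 principal components, whose markers were mixed. On the pair of mice that shared a flow cell, values with no test, *Procr* was 0.11 and *Plat* -0.88, and with each cell given equal weight *Vwf* was -0.33, *Tfpi* 0.36 and *Plat* 0.014. *F8* entered only the fits with no filter (0.58), without EC-WT mouse 1 (0.17) and without EC-WT mouse 2 (1.07). The EC-KO minus EC-WT difference in the share of cells with a *Tfpi* UMI, -1.69 points after thinning to 1000 UMIs, was 5.12 unthinned, 4.24 at 2000 UMIs and 3.15 over all kept cells, that of *Plat* was 0.861 unthinned and 0.154 over all kept cells, and that of *F8* ranged from 0 to 1.34 with 1 mouse left out. With 1 mouse left out that of *Vwf* ranged from -2.76 to 1.75, that of *Procr* from -8.82 to 0.826, that of *Tfpi* from -3.76 to 0.387 and that of *Plat* from -5.15 to 0.772. At a minimum of 500 UMIs and with no mitochondrial limit the added wells were not clustered, which was decided after the clustering was seen.

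The difference between mouse 1 and mouse 2 was scarcely correlated between the 2 groups (r = -0.04 over 8145 genes). With 1 difference per group this cannot show whether equal numbers mark a shared litter, day or run. With the replicate block, 0 genes were called (350 at an unadjusted p under 0.05), and *Vwf* was -0.23, *Procr* -0.45, *Plat* -0.27 and *Tfpi* 0.24.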
